A study of Mus musculus with 10 samples.

Results

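The 9 genes described here, Vpreb1, Igll1, Rag1, Dntt, Cd79a, Cd79b, Ms4a1, Pax5 and Ebf1, are B cell and B precursor genes, taken by symbol from the 54532 genes counted by RNA-seq of the mouse cochlea. The first 4 mark B cell precursors of the bone marrow, and the other 5 are B lineage genes. The 10 mice were 12 months old and carried mtKeima, a pH-dependent fluorescent reporter of mitochondria, on a mixed genetic background. All were described as WT for the cadherin23 and Nnt genes. The 5 NR-treated mice drank nicotinamide riboside (NR), an NAD+ precursor, at 7 mg/ml (24 mM) from 2 months of age for 10 months, and the 5 non-treated mice, labelled Vehicle, drank regular water. The labels call every mouse female and the methods describe male mice. All 10 libraries held the Y-linked Ddx3y at 64.5 to 85.0 CPM and Xist at no more than 0.405 CPM, which goes against the sex in the labels. Coch, a defining gene of the inner ear, lay between 2116 and 4207 CPM in the 10 libraries. CPM are read counts scaled to a common library size, after TMM normalization, of libraries with 17060379 to 24419230 counted reads each. Libraries were made from whole dissected cochlear tissue, so fewer cells of a type and less RNA per cell cannot be told apart.

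B cells arise in the bone marrow. Pro-B and pre-B cells cut and rejoin their immunoglobulin genes with the RAG recombinase, of which Rag1 encodes a catalytic subunit, and Dntt encodes terminal deoxynucleotidyl transferase, which adds bases at the joins. Developing T cells of the thymus use Rag1 and Dntt as well, and Ptcra, a gene of those cells, was at 0 to 0.243 CPM in the 10 libraries. A list of 10 T cell genes that includes Ptcra summed to 13.9 to 31.6 CPM. Which cells the Rag1 and Dntt reads came from was not tested. Before a light chain exists, the heavy chain pairs with a surrogate light chain made of VpreB and lambda5, the products of Vpreb1 and Igll1. Cd79a and Cd79b encode the signalling pair of the B cell receptor. Ebf1 and Pax5 are transcription factors that set and hold B cell identity, and Ms4a1 encodes CD20, a surface protein that appears late in B cell development. Cd79a, Cd79b, Ebf1 and Pax5 are active in precursors as well as in mature B cells, so they follow the lineage rather than the mature stage. Ebf1 is also expressed by adipocyte precursors and stromal cells.

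The sequence of Vpreb1 matters for reading its counts, because Vpreb2 is a near copy. The coding sequences of both genes are 426 bases long and differ at 9 bases, an identity of 97.9%, with 196 bases as the longest identical run. Bases 238 to 387 of each coding sequence, counted from the start codon in the GENCODE M21 transcripts (GRCm38), are shown because 6 of the differences, in capitals, lie there.
Vpreb1: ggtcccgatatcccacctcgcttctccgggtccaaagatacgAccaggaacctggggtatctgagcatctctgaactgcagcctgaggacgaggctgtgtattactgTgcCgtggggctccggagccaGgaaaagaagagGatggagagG
Vpreb2: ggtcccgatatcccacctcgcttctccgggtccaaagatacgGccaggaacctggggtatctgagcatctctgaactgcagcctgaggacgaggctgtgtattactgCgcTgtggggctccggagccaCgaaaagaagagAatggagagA
Of the stretches of 50 bases in the Vpreb1 transcripts, 23.6% also occur in another gene, against 8.31% for Cd79a, 7.02% for Pax5, 1.21% for Ms4a1, 0.503% for Rag1 and none for Cd79b, Ebf1, Igll1 and Dntt. Exons of another gene overlap 9.01% of Vpreb1, 8.60% of Pax5 and 1.21% of Rag1 in GENCODE M21. Reads there overlap more than 1 gene, and the counting tool, featureCounts in default mode, leaves such reads uncounted. Of the stretches of 50 bases in Vpreb2, 32.8% also occur in Vpreb1. Vpreb2 itself had 0 to 9 reads per mouse, while Vpreb1 had 16 to 96. Both counts leave out reads that map to several places, so they do not give the full level of either gene.

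E2A, a transcription factor of early B cell development, binds the E-box CAGGTG. In the 250 bases before the RefSeq start sites, 7 of the 9 genes have a promoter entry, and the E-box, searched on both strands, was found for Cd79a, Vpreb1, Igll1 and Rag1. It was found in 17.2% of 32851 promoters. The E-box of Vpreb1 lies 88 bases before the RefSeq start, beyond the first annotated exonic base of the gene. The binding motif of EBF, the family of Ebf1, searched in the same way, was in 0 of the 8 promoters of these genes and in 0.779% of all promoters. The promoters of Cd79a and Igll1 are shown because the levels of these genes are used below as references for the B lineage and for the precursors; the E-box on either strand is in capitals. The bases of Cd79a end where its annotated exon begins.
Cd79a, chr7:24897247-24897380, plus strand, GRCm38.p6: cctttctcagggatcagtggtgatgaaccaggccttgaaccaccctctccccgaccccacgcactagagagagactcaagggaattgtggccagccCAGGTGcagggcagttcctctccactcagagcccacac
Igll1, chr16:16863986-16864235, minus strand, GRCm38.p6: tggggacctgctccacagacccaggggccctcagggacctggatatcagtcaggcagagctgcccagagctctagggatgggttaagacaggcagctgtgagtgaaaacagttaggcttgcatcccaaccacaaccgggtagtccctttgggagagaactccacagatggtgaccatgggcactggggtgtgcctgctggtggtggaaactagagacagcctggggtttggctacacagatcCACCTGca
A match describes the letters of the window only.

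All 9 genes had reads in all 10 mice, and none passed a test for a difference between the groups. By edgeR's quasi-likelihood test with Benjamini-Hochberg adjustment over 18329 genes, 0 of the 9 passed an adjusted p of 0.05 and 0 passed an unadjusted p of 0.05. Over all genes tested, 0% passed the adjusted threshold and 9.71% the unadjusted threshold, 4.88% as lower and 4.83% as higher with NR, or 894 and 886 genes. When counts were scaled by library size alone, these were 574 and 1188 genes. DESeq2 also called 0 of the 9, against 0.52% of its genes at an adjusted p of 0.05 and 6.58% at an unadjusted one. The log2 fold change was below 0 for 8 of the 9, the exception being Ebf1, where 52.9% of all genes were below 0. For each of the 9 genes the groups overlapped, which held for all but 1.65% of genes tested, 0.769% with NR above and 0.878% with NR below.

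**Figure D1:**
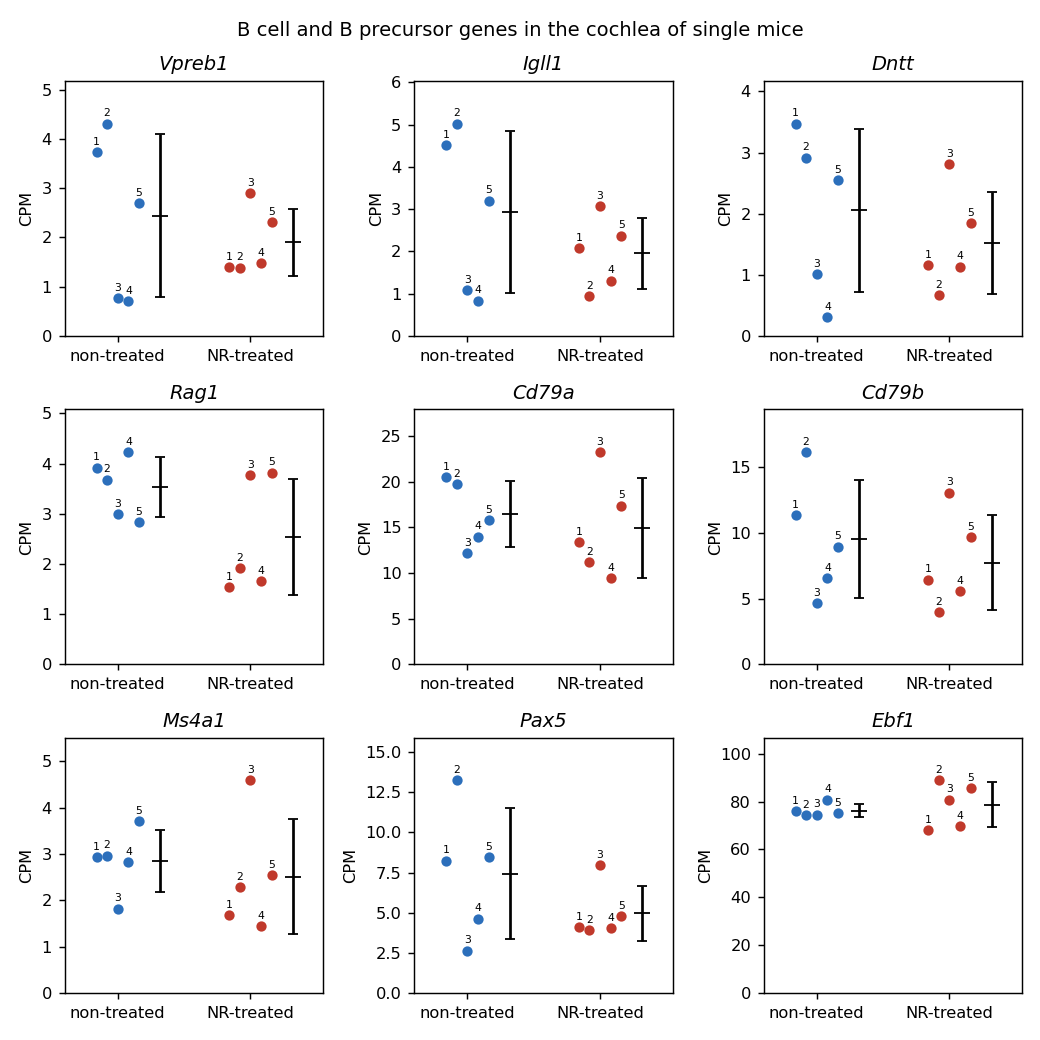
Level of each gene in CPM, on an axis from 0, in the 5 non-treated (blue) and 5 NR-treated (red) mice; numbers are the replicates, and the black bar and whiskers give the mean ± SD of the group. Non-treated mice 3 and 4 are the lowest for Vpreb1 at 0.769 and 0.705 CPM, while Ebf1 lies between 68.2 and 88.9 CPM in all 10.

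Among the surrogate light chain genes, Vpreb1 (chr16:16868403-16870843 in mm10) was at 1.40, 1.39, 2.90, 1.48 and 2.32 CPM in NR replicates 1 to 5. In the non-treated mice it was at 3.72, 4.31, 0.769, 0.705 and 2.69 CPM. Both the highest values, in Vehicle replicates 1 and 2, and the lowest, in 3 and 4, came from non-treated mice. The means were 1.90 ± 0.68 CPM with NR and 2.44 ± 1.66 CPM without (SD, n = 5), and the edgeR log2 fold change was -0.36 ± 0.49 (SE, adjusted p = 0.819).

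Igll1, which lies close to Vpreb1 on chromosome 16 (chr16:16860671-16863985), had 2.07, 0.940, 3.07, 1.31 and 2.37 CPM in the NR-treated mice. The non-treated mice had 4.52, 5.03, 1.09, 0.838 and 3.20 CPM. As for Vpreb1, non-treated mice held both ends of the range. The log2 fold change was -0.58 ± 0.50 by edgeR (SE, adjusted p = 0.715), with a 95% interval from -1.69 to 0.53. The reads of Igll1 over those of Vpreb1 stayed between 0.677 and 1.48 in the 10 mice.

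Dntt (chr19:41029275-41059523) had 1.16, 0.671, 2.81, 1.14 and 1.85 CPM in the NR-treated mice. The non-treated mice had 3.48, 2.92, 1.01, 0.309 and 2.55 CPM, the low value of replicate 4 resting on 7 reads. Dntt thus had the widest range of the 9 genes among the non-treated mice, 11.3 times from the lowest to the highest. The edgeR log2 fold change was -0.42 ± 0.56 (SE, adjusted p = 0.812).

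Rag1 (chr2:101638282-101649501) followed another order among the non-treated mice. It had 1.54, 1.92, 3.76, 1.66 and 3.82 CPM in the NR-treated mice and 3.92, 3.68, 2.99, 4.23 and 2.83 CPM in the non-treated mice. NR replicates 1, 2 and 4 lay below every non-treated mouse, while NR replicates 3 and 5 lay within the range of the non-treated mice. Its log2 fold change was -0.48 ± 0.28 (SE, adjusted p = 0.611 by edgeR, unadjusted p = 0.121), the smallest p of the 9. Rag2, its partner subunit, had 3 to 21 reads per mouse and a log2 fold change of -0.62 ± 0.40 (SE, adjusted p = 0.637 by edgeR).

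**Figure D2:**
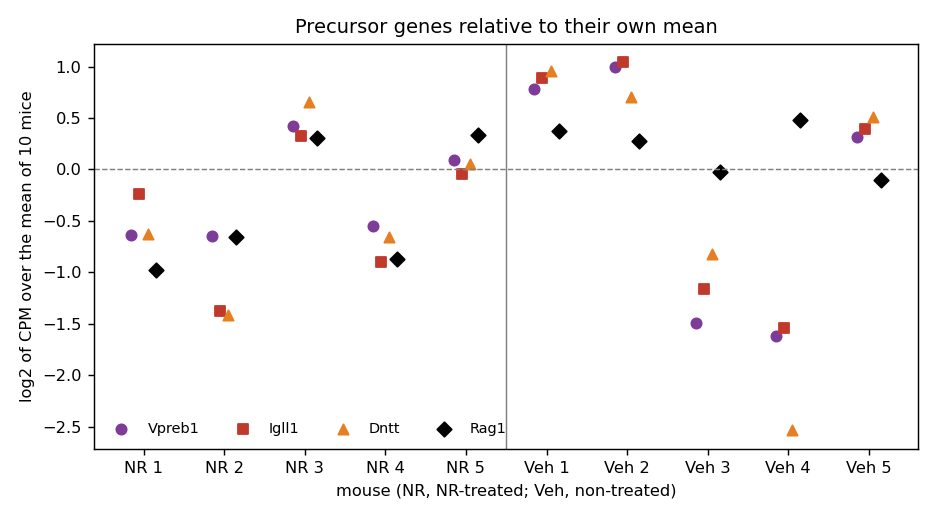
Level of the 4 precursor genes in each mouse as the log2 of CPM over the gene's mean of 10 mice; the vertical line parts NR-treated (NR) from non-treated (Veh) mice. In non-treated mouse 4, Rag1 is at its highest, 4.23 CPM, where Vpreb1, Igll1 and Dntt are at their lowest.

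Vehicle replicate 4 therefore held the highest Rag1 level of the 10 mice together with the lowest Vpreb1, Igll1 and Dntt levels. The summed reads of Vpreb1 and Igll1 were 0.365 times those of Rag1 in that mouse and 0.622 times in Vehicle replicate 3. In the other 8 mice they were 1.21 to 2.54 times those of Rag1.

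Of the B lineage genes, Cd79a (chr7:24897381-24902197) was the most counted after Ebf1. It had 13.3, 11.2, 23.2, 9.43 and 17.4 CPM in the NR-treated mice and 20.5, 19.7, 12.1, 14.0 and 15.8 CPM in the non-treated mice. NR replicate 3 was the highest and NR replicate 4 the lowest of all 10. Its log2 fold change was -0.14 ± 0.24 (SE, adjusted p = 0.861 by edgeR), with a 95% interval from -0.67 to 0.39.

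Cd79b (chr11:106311341-106314762) had 6.46, 3.98, 13.1, 5.59 and 9.67 CPM in the NR-treated mice. In the non-treated mice it had 11.4, 16.2, 4.69, 6.57 and 8.96 CPM. NR replicate 3 and Vehicle replicates 1 and 2 were the 3 highest, as they were for Cd79a. By edgeR the groups differed by a log2 fold change of -0.30 ± 0.37 (SE, adjusted p = 0.800).

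Ms4a1 (chr19:11249675-11266241) had 1.69, 2.28, 4.59, 1.44 and 2.55 CPM in the NR-treated mice and 2.93, 2.96, 1.82, 2.82 and 3.71 CPM in the non-treated mice. Here NR replicate 3 was again the highest mouse. Its log2 fold change was -0.18 ± 0.31 (SE, adjusted p = 0.859 by edgeR).

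Pax5 (chr4:44524757-44710487) had 4.10, 3.89, 7.96, 4.06 and 4.80 CPM in the NR-treated mice. The non-treated mice spread more widely, at 8.24, 13.2, 2.63, 4.63 and 8.45 CPM. Vehicle replicates 1, 2 and 5 lay above every NR-treated mouse, and Vehicle replicate 3 below every NR-treated mouse. Pax5 had a log2 fold change of -0.58 ± 0.38 (SE, adjusted p = 0.643 by edgeR).

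Ebf1 (chr11:44617317-45008091) stood apart from the other 8 in level and in spread. It had 68.2, 88.9, 80.9, 69.9 and 85.8 CPM with NR and 76.0, 74.3, 74.5, 80.9 and 75.1 CPM without. The coefficient of variation was 11.8% with NR and 3.55% without, against 17% to 68.0% for the other genes in either group and a median of 11.4% and 14.1% over all genes tested. Counting error alone gives 2.45% and 2.43% for Ebf1. For Ebf1 the log2 fold change was 0.048 ± 0.076 (SE, adjusted p = 0.849 by edgeR), with a 95% interval from -0.12 to 0.22.

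**Figure D3:**
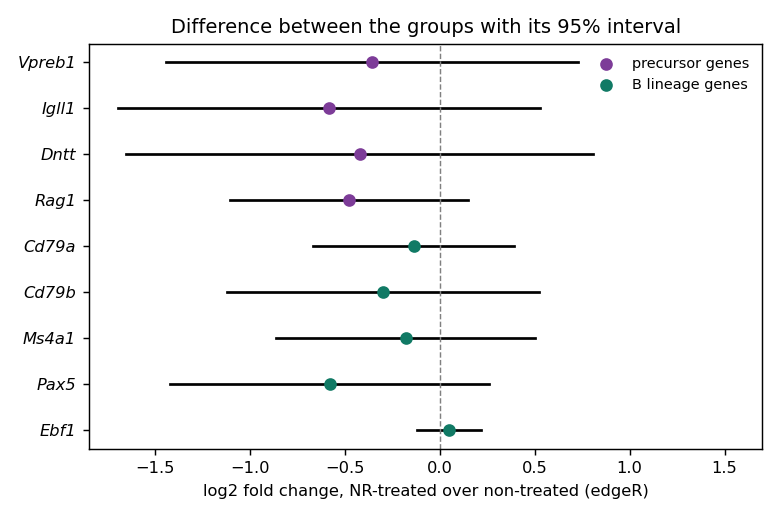
edgeR log2 fold change of each gene, NR-treated over non-treated (n = 5 each), with its 95% interval; the dashed line is no difference. Every interval crosses 0, from the narrow interval of Ebf1 (-0.12 to 0.22) to that of Dntt (-1.65 to 0.81).

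To set precursors against the B lineage, the CPM of Vpreb1, Igll1, Rag1 and Dntt were summed and divided by the sum of Cd79a, Cd79b, Ms4a1 and Pax5. The precursor sum was 6.17, 4.92, 12.5, 5.59 and 10.4 CPM in the NR-treated mice and 15.6, 15.9, 5.87, 6.08 and 11.3 CPM in the non-treated mice. The B lineage sum was 25.6, 21.4, 48.9, 20.5 and 34.4 CPM with NR and 43.0, 52.1, 21.3, 28.0 and 36.9 CPM without. Mice with a high precursor sum were also high in the B lineage sum, and both groups held such mice.

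The precursor sum was 26.0% ± 2.8 of the B lineage sum in the NR-treated and 29.4% ± 5.3 in the non-treated mice (SD, n = 5). The lowest of the 10, 21.7%, and the highest, 36.3%, were both in non-treated mice. On the log2 scale, with 0.1 CPM added to each sum, the mean was -1.93 ± 0.15 with NR and -1.78 ± 0.27 without, a difference of -0.16 that is smaller than the SD of the non-treated mice. As a sum over chosen genes it was not tested. From reads per kilobase the difference was -0.041, with Ebf1 in the denominator it was -0.38, and with Vpreb1 and Igll1 alone as the numerator it was 0.064, in the opposite direction.

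**Figure D4:**
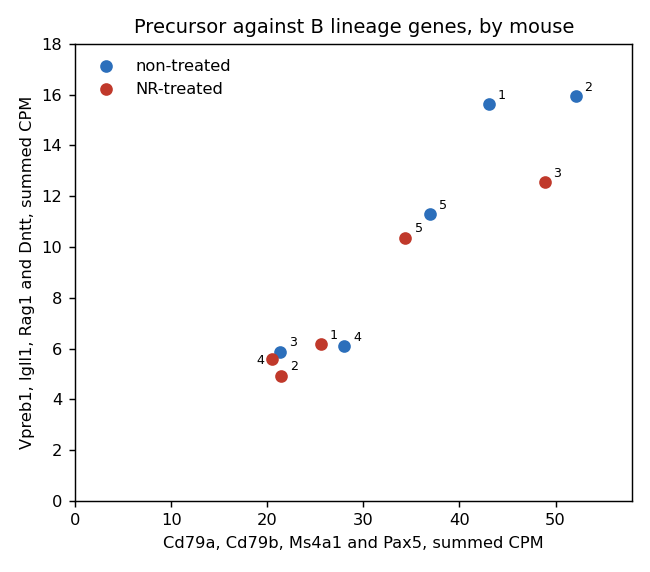
Summed CPM of the 4 precursor genes (vertical) against that of Cd79a, Cd79b, Ms4a1 and Pax5 (horizontal), with 1 point per mouse and its replicate number; both axes start at 0. Sums run from 4.92 CPM in NR replicate 2 to 15.9 CPM in Vehicle replicate 2 along the vertical axis, with red and blue points mixed along the range.

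The genes moved together from mouse to mouse, which is given as a description over the 10 libraries. Pearson's r of log2 CPM was 0.91 to 0.94 among Vpreb1, Igll1 and Dntt (Spearman's rho 0.96 to 0.98), and 0.69 to 0.90 among Cd79a, Cd79b, Ms4a1 and Pax5 (rho 0.77 to 0.93). Between these sets of genes r was 0.47 to 0.89 over 12 pairs. Deviations from the group means gave 0.46 to 0.91 for the same pairs, so the relation was also present within the groups.

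Rag1 was less tied to the other precursor genes, with r of 0.27 to 0.36 to Vpreb1, Igll1 and Dntt (rho 0.14 to 0.21). These values depended on few mice. Without Vehicle replicates 3 and 4, which were farthest from the median of Vpreb1, r of Rag1 and Vpreb1 was 0.89 over 8 mice. Leaving out the 2 mice farthest from the median of the other gene in the same way gave 0.58 for Rag1 and Igll1, without NR replicate 2 and Vehicle replicate 4, and 0.72 for Rag1 and Dntt, without Vehicle replicates 1 and 4. Rag1 had r of 0.47 to 0.74 with Cd79a, Cd79b, Ms4a1 and Pax5. Ebf1 had r between -0.22 and 0.43 with the other 8 genes.

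Per kilobase of gene length, the order over all 10 mice was Cd79a (10.8 CPM per kb), Ebf1 (7.94), Cd79b (6.05), Vpreb1 (1.81), Igll1 (1.13), Dntt (0.841), Pax5 (0.70), Rag1 (0.460) and Ms4a1 (0.433). Cd79b was above Vpreb1, Vpreb1 above Igll1 and Igll1 above Dntt in all 10 mice. Cd79a was above Ebf1 in 8 mice and Ebf1 above Cd79b in 7. The neighbours at the low end were less clearly ordered, Dntt lying above Pax5 in 7 mice, Pax5 above Rag1 in 7 and Rag1 above Ms4a1 in 6.

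**Figure D5:**
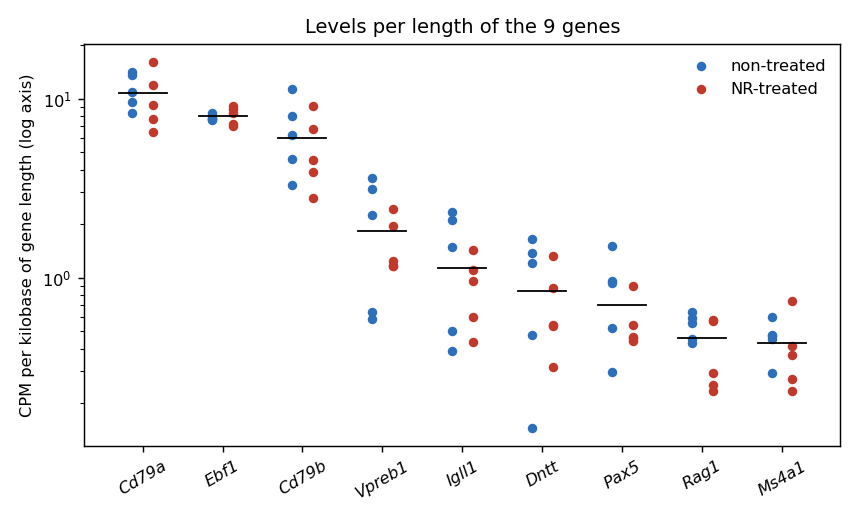
CPM per kilobase of gene length on a log axis for each mouse, non-treated in blue and NR-treated in red, with a line at the mean of 10 mice, in order of that mean. Cd79a leads at 10.8 CPM per kb and Ms4a1 is last at 0.433, and the ranges of neighbouring genes overlap, even for Cd79b (lowest 2.78) and Vpreb1 (highest 3.59).

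Other precursor genes and genes of other stages were fixed as lists for comparison. Whether their reads came from B cells was not tested. Of 10 other precursor genes 9 were tested, with 5 above and 4 below 0 and 0 at an unadjusted p of 0.05 by edgeR (median log2 fold change 0.045, against -0.0092 for all genes). Bcl7a, the most counted, had 58.8 ± 1.1 CPM with NR and 62.3 ± 2.5 CPM without (SD, n = 5), and an adjusted p of 0.560 by edgeR. Its groups did not overlap, with NR below, which held for 0.878% of all genes tested. Flt3, a cytokine receptor of early progenitors, had a log2 fold change of 0.16 ± 0.14 (SE). Of the 9, only Myb, a transcription factor of progenitors, had r of at least 0.7 with Igll1 (r = 0.90, rho 0.85, n = 10), and the median of the list was 0.38, with Rag2 at -0.0034 and Bcl7a at -0.25.

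All 11 genes of the mature B surface list were detected and 0 passed an unadjusted p of 0.05 by edgeR, with 5 above 0 and 6 below 0 and a median of -0.024. Ighd, the IgD constant region of mature naive B cells, had 10.9 ± 2.7 CPM with NR and 11.1 ± 3.7 CPM without (SD, n = 5). Fcer2a (CD23) had a log2 fold change of -0.30 ± 0.32, Tnfrsf13c (the BAFF receptor) 0.44 ± 0.20 and the tetraspanin Cd37 0.048 ± 0.25 (SE). Ighd was at its highest, 16.2 CPM, in Vehicle replicate 4, the mouse with the fewest reads of Dntt. No other gene of the list was at its highest in that mouse.

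Of 13 B cell receptor signalling genes, 0 passed an unadjusted p of 0.05, with 4 above and 9 below 0 and a median of -0.090. The log2 fold change was 0.069 ± 0.30 for the kinase gene Syk, -0.76 ± 0.57 for Fcrla and -0.20 ± 0.19 for Pik3ap1 (SE). With Igll1, 7 of the 13 had r of at least 0.7, as did 5.49% of all genes, and with Cd79a 4 of the 13, as did 1.11% of all genes.

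Of 13 B lineage transcription factor genes, 0 passed an adjusted and 1 an unadjusted p of 0.05, Tcf12 (log2 fold change -0.17 ± 0.074, SE, adjusted p = 0.496 by edgeR), and the median was -0.11. Tcf3, which encodes E2A, had -0.072 ± 0.072, Spib -0.64 ± 0.41 and Spi1, which encodes PU.1 and is also a myeloid gene, 0.50 ± 0.28 (SE). Of 8 plasma cell genes 7 were tested, with 2 above and 5 below 0, none at an unadjusted p of 0.05 and a median of -0.16. Among them Xbp1 had -0.16 ± 0.13, Derl3 -0.57 ± 0.26, Sdc1 0.57 ± 0.27 and Irf4 -0.41 ± 0.29 (log2 fold change, SE).

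By the likeness of their levels over the 10 mice, the 10 genes nearest to Cd79a included Pou2af1, which encodes a B cell coactivator (r = 0.93), Zrsr2 (0.91), Emid1 (0.91), Cd79b (0.90), Wtap (0.90), Cblb (0.89), Chst3 (0.87), Gpr174 (0.87) and Spib (0.86). Those nearest to Igll1 were Taldo1 (r = 0.97), Pih1d1 (0.96), the mitotic kinase gene Plk1 (0.95), Lactb (0.94), Vpreb1 (0.94), Dntt (0.94), Hnrnpab (0.94), the spindle checkpoint gene Bub1b (0.94), Set (0.93) and Eef1b2 (0.93). Of 18329 genes, 6 had r of at least 0.9 with Cd79a and 35 with Igll1, the named gene itself included. Without the 2 mice farthest from the median of the reference gene, r of the named genes was 0.81 to 0.96 for Cd79a and 0.88 to 0.96 for Igll1. All 7 proliferation genes had r of at least 0.7 with Igll1, from 0.71 for Mki67 to 0.85 for Ccnb2, where 5.49% of all genes reached it. Their r was 0.49 to 0.59 with Cd79a and 0.15 to 0.38 with Rag1, so 0 of the 7 reached 0.7, as 1.11% and 0.666% of all genes did. The differences between these correlations were not tested.

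Genes of other cells in the dissected tissue were followed beside the B cell genes, and their part in the values above was not tested. The 7 proliferation genes were all below 0 (median -0.35), 0 of them at an unadjusted p of 0.05, with Mki67 at -0.47 ± 0.29, Top2a at -0.39 ± 0.27 and Ccnb1 at -0.38 ± 0.27 (log2 fold change, SE). All 9 erythroid genes tested were below 0 (median -0.21), 0 at an unadjusted p of 0.05, and their summed level was 7444 to 13125 CPM with NR and 4151 to 18026 CPM without. Of 11 neutrophil and myeloid precursor genes 10 were above 0 (median 0.44), again 0 at an unadjusted p of 0.05, with sums of 1491 to 5054 CPM with NR and 1510 to 5919 CPM without. Hbb-bs had a log2 fold change of -0.085 ± 0.33 and S100a9 of 0.46 ± 0.34 (SE). All 7 macrophage genes were above 0 (median 0.18) and 0 of them passed an unadjusted p of 0.05, with Csf1r at 0.33 ± 0.21 (SE). Of 8 T cell genes tested 5 were above 0 (median 0.20), none at an unadjusted p of 0.05, with Cd4 at -0.39 ± 0.27 and Cd3e at 0.64 ± 0.42 (SE).

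Of the 15 lists, the adipocyte genes had the median log2 fold change farthest from 0. The list holds Cidec and Plin1, which the paper named among the genes most changed by NR in these libraries. Its place among the lists is therefore not independent evidence. All 5 tested were above 0 (median 2.36). At an unadjusted p of 0.05 by edgeR 4 were higher, against 4.83% of all genes tested. At an adjusted p of 0.05, 4 passed by DESeq2, against 0.52% of its genes, and 0 by edgeR. The summed level of the adipocyte genes was 34.5 to 73.3 CPM with NR and 6.47 to 22.9 CPM without. Cfd had a log2 fold change of 2.36 ± 0.40, Cidec of 3.04 ± 0.45 and Plin1 of 3.05 ± 0.51 (SE), each with an adjusted p of 0.224 by edgeR. Of 6 osteoblast and osteocyte genes 1 was higher at an unadjusted p of 0.05, Col1a1 (1.74 ± 0.48, SE, adjusted p = 0.408 by edgeR), with 3 above and 3 below 0 (median 0.12). All 11 cochlea genes were below 0 (median -0.52), 6 at an unadjusted p of 0.05 by edgeR and 0 at an adjusted one. Over all genes tested, 52.9% were below 0 and 4.88% were lower at that unadjusted p. Otos was at -0.73 ± 0.22, Tectb at -1.43 ± 0.56 and Coch at -0.19 ± 0.19 (SE). The mean log2 CPM of the cochlea genes was highest in Vehicle replicates 3 and 4, at 6.83 and 7.07. It was 5.15 to 6.17 in the other mice. Of 7 stromal genes fixed because such cells can express Ebf1, 5 were below 0 (median -0.12) and 1, Rgs5, was lower at an unadjusted p of 0.05 (-0.19 ± 0.074, SE, adjusted p = 0.476 by edgeR). Ebf2 was at -0.23 ± 0.11 and Dcn at -0.15 ± 0.10 (SE). The 4 sex genes tested were all below 0 (median -0.061), with Ddx3y at -0.16 ± 0.062 (SE, unadjusted p = 0.0291, adjusted p = 0.476 by edgeR).

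Each of the 9 genes was also compared with the mean log2 CPM of 4 lists, the neutrophil, erythroid, adipocyte and osteoblast genes, which makes 36 pairs. No pair passed an adjusted p of 0.05 by a two-sided permutation test with 100000 resamples. The highest was Dntt with the erythroid genes, at r = 0.79 (permutation p = 0.00604, adjusted p = 0.164) and rho = 0.61 (permutation p = 0.0664, adjusted p = 0.769), followed by Vpreb1 with r = 0.75 (permutation p = 0.00911, adjusted p = 0.164) and rho = 0.64 (permutation p = 0.0537, adjusted p = 0.769). Without Vehicle replicates 1 and 4, which were farthest from the erythroid median, r of Dntt was 0.43 and r of Vpreb1 0.54, so these relations rested partly on those mice. Igll1 had r of 0.70 with the erythroid genes (rho 0.65), and 0.43 without those mice. With the neutrophil genes r was highest for Cd79b, at 0.64 (rho 0.38), followed by Igll1 at 0.59 (rho 0.39). Without NR replicate 2 and Vehicle replicate 3, farthest from the neutrophil median, these r were 0.086 and 0.24. Rag1 had r of 0.14 with the erythroid genes (rho 0.13) and 0.0046 with the neutrophil genes (rho -0.28).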

How the data were processed

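The authors deposited unnormalized read counts for each gene, with 1 file per mouse, which Novogene made by aligning reads to mm10 with STAR version 2.6.1d and counting with featureCounts version 1.5.0 in default mode, which leaves out reads that map to several places. The annotation release is not given in the sources used here. Lengths and coordinates are those of the files.

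The 9 genes and the 15 other gene lists were chosen with earlier results of these data known. Counts were tested with the quasi-likelihood test of edgeR version 4.0.16 in R version 4.3.3, after filterByExpr (minimum count 10) and TMM, on 5 NR-treated against 5 non-treated mice without covariates, with Benjamini-Hochberg adjustment over 18329 genes. All 9 genes passed the filter. On simulated counts for this comparison, over 18132 genes, 74.5% of genes changed by log2 1 and 96.0% of those changed by log2 2 were recovered. There were 5 false calls. The changed genes were drawn at random from all genes kept by the filter. These shares therefore do not give the recovery for the precursor genes, whose SEs were 0.28 to 0.56. The simulated counts varied independently from gene to gene, so the shares do not give the recovery in these mice either. In the data Cfd, Cidec and Plin1, at log2 fold changes of 2.36 to 3.05, had an adjusted p of 0.224 by edgeR. Correlations used log2 CPM with a prior count of 2 and scipy version 1.17.1. DESeq2 version 1.42.0 was an alternative. Named were the 9 genes, the most counted gene and up to 3 genes with the smallest p of each list, and the 10 genes most correlated with Cd79a and with Igll1; Ighd, Myb, Ccnb2 and the other genes outside this rule were chosen after their values were seen. Nothing says that replicate numbers mark a shared litter or day. The p-values of the group tests set a difference against the spread between these mice. No 2 libraries of the 45 pairs were identical. Ahsp was not found under that symbol, and Vpreb2, Tnfrsf17, Cd8b1, Ptcra, Lep and Xist did not pass the filter. The values of 1 gene that the rule names are not reported here.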

Additional observations from a re-analysis of the deposited data

Results flagged for a closer look

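In groups of 5 mice, the highest or lowest mouse of 42 sets of values was compared with the others by Dixon's criterion, which chance passes in about 1 of 20 groups, and 3 passed. Pax5 was at 7.96 CPM in NR replicate 3, where the next NR-treated mouse had 4.80 CPM. That mouse was also the highest of all 10 for Cd79a and Ms4a1. Ebf1 was at 80.9 CPM in Vehicle replicate 4, where the next non-treated mouse had 76.0 CPM. Vpreb3, which encodes a VpreB-related protein of precursors, was at 4.70 CPM in NR replicate 2, where the next NR-treated mouse had 7.99 CPM.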

How the results depend on the processing

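None of the 9 genes changed direction or passed an adjusted p of 0.05 in any of 17 alternatives each. Their log2 fold changes ranged from -0.82 to -0.29 for Igll1, -0.76 to -0.15 for Dntt, -0.59 to -0.035 for Vpreb1 and -0.66 to -0.33 for Rag1, with the ends set by leaving out NR replicate 3 or 1 and Vehicle replicates 1, 2 or 4. They ranged from -0.35 to -0.0023 for Cd79a, -0.57 to -0.013 for Cd79b, -0.51 to -0.025 for Ms4a1, -0.81 to -0.25 for Pax5 and 0.0084 to 0.10 for Ebf1. Over all genes, DESeq2 called 52 higher and 50 lower at an adjusted p of 0.05 where edgeR called 0 and 0. Scaling by library size alone gave 1188 higher and 574 lower at an unadjusted p of 0.05, against 886 and 894, and keeping all genes with at least 1 read gave 1414 higher. Leaving out 1 mouse gave 669 to 1414 higher (669 without NR replicate 3 and 1414 without NR replicate 2) and 484 to 1059 lower (521 without NR replicate 1, 484 without NR replicate 3 and 558 without Vehicle replicate 3), and at the adjusted threshold 0 to 1 higher, the 1 without NR replicate 2, and 0 lower. The difference of the precursor to B lineage log2 ratio was -0.16, from -0.26 to -0.076 without 1 mouse, -0.041 from reads per kilobase, -0.38 with Ebf1 in the denominator and 0.064 with Vpreb1 and Igll1 as numerator. The cause of these changes was not tested. No pair of a gene and a list passed in any alternative.

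Same-numbered mice had correlations of deviations of 0.17, -0.12, -0.22, 0.016 and 0.13. Such values cannot settle whether the replicate numbers pair the mice, because paired mice can differ as much as unpaired ones. With a replicate block, 879 genes were higher and 776 lower at an unadjusted p of 0.05, 0 passed the adjusted one, and the log2 fold change was -0.56 for Rag1 and -0.39 for Igll1. At the mean count of each group, counting error alone gives a coefficient of variation of 11.3% to 17.6% for Vpreb1, Igll1, Rag1 and Dntt. Single mice had 7 to 112 reads of these genes, and the counting error is larger in mice with fewer reads.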
